A study of Mus musculus with 12 samples.

Results

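The cyclin-dependent kinase inhibitors and the D cyclins are 10 genes here: the Cip/Kip inhibitors Cdkn1a (p21), Cdkn1b (p27) and Cdkn1c (p57), the INK4 inhibitors Cdkn2a, Cdkn2b, Cdkn2c and Cdkn2d, and the cyclins Ccnd1, Ccnd2 and Ccnd3. They were taken by gene symbol from the peak lists of histone H4 lysine 8 acetylation (H4K8ac), and all 10 were found among 23433 genes to which any list assigned a peak. H4K8ac had been mapped by ChIP-seq (sequencing of the DNA that comes down with an antibody to the mark) in oligodendrocyte progenitor cells (OPCs) sorted from mouse forebrain, to compare progenitors of different ages. The neonatal group held 3 libraries from mice at postnatal day 5 and the adult group 3 libraries from mice at postnatal day 60. All mice carried PdgfrαH2BEGFP, in which the Pdgfra locus drives a green fluorescent protein fused to histone H2B; no treatment or further allele is named. Pdgfra marks OPCs but is also active in fibroblast-like cells of the brain's vessels and coverings, and a histone-bound fluorescent protein can outlast the activity of the gene that made it. The labels name the replicates as biological and do not say how many animals each library pooled.

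Cyclin D pairs with the kinases Cdk4 and Cdk6 to phosphorylate the retinoblastoma protein, which releases E2F factors and lets a cell pass from G1 into S phase. INK4 proteins bind Cdk4 and Cdk6 directly, whereas Cip/Kip proteins act mainly on the later cyclin E and cyclin A complexes. OPCs divide quickly around birth and slowly in the adult brain, p27 is known for limiting their divisions, and p57 and p21 are known for roles in their exit from the cycle or their differentiation. H4K8ac is found at the start sites and enhancers of active genes.

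RefSeq promoter sequence (GRCm38.p6) was matched for 7 of the 10 genes, as 11 windows of the 250 bases before a start. The 6 windows printed here were chosen to show where the mark lay, so their coverage is a description: both starts of Cdkn1a and of Cdkn2a, of which only 1 carried peaks, and the main starts of Cdkn1b and Cdkn2c, which carried peaks at both ages. Each runs 5′ to 3′ on the gene's strand, and capitals mark CpG dinucleotides.
Cdkn1a, upstream start, chr17:29090729-29090978, plus strand: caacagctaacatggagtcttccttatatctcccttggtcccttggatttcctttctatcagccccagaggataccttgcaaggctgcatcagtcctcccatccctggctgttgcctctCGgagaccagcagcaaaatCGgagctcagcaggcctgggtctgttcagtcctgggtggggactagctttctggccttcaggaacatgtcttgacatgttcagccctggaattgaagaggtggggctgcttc
Cdkn1a, downstream start, chr17:29093519-29093768, plus strand: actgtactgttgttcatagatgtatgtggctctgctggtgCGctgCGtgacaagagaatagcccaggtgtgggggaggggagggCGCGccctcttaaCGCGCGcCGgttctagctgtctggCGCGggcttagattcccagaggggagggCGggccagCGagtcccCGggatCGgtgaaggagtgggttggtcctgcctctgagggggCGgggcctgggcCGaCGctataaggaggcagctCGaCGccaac
Cdkn2a, upstream start (p19ARF), chr4:89294620-89294869, minus strand: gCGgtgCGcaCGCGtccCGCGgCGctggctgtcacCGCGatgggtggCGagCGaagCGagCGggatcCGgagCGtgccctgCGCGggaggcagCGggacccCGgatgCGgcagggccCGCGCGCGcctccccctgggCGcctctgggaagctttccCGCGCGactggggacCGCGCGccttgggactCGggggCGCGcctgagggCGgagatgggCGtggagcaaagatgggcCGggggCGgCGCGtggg
Cdkn2a, downstream start (p16INK4a), chr4:89282193-89282442, minus strand: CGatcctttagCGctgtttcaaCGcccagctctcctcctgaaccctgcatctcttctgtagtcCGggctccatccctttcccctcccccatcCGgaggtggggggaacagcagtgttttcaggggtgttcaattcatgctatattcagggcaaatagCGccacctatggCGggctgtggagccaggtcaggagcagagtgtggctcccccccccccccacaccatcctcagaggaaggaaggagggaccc
Cdkn1b, chr6:134920151-134920400, plus strand: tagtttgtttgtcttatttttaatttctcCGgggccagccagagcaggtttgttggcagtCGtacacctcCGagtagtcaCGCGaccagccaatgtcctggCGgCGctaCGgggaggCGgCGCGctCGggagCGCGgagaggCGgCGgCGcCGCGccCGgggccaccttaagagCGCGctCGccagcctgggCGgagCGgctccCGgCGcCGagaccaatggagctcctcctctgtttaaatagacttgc
Cdkn2c, upstream start, chr4:109666757-109667006, minus strand: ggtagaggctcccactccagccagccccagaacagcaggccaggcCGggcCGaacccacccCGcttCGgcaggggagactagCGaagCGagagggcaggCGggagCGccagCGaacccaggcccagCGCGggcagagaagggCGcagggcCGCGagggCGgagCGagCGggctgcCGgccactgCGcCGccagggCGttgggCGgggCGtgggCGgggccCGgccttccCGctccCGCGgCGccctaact

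Coverage differed between the starts of a gene. The downstream Cdkn1a window holds 19 CpG and was covered over 231, 95 and 188 bases in the adult libraries and 0 in every neonatal library; the upstream window, with 2 CpG, was covered in none of the 6. The upstream Cdkn2a window holds 40 CpG and was covered over 121, 0 and 242 bases in the adult libraries, against none in any library for the p16INK4a window with its 7 CpG. The Cdkn1b window, with 28 CpG, was covered over 0, 133 and 97 bases in the neonatal and 250, 153 and 250 in the adult libraries. The Cdkn2c window, with 29 CpG, was covered over 118, 153 and 128 bases in the neonatal and 160, 142 and 179 in the adult libraries. Among the windows not printed, that of Cdkn2d holds 16 CpG and was covered in no library, and the downstream window of Cdkn2c, with 6 CpG, was covered over 135 bases in adult replicate 3 alone. Coverage went with CpG content over all 32851 RefSeq windows, whose median is 6 CpG: a peak touched the window in all 3 adult libraries for 9.44% of windows with fewer than 10 CpG, 54.1% of those with 10 to 19 and 74.6% of those with 20 or more. In all 3 neonatal libraries the shares were 0.196%, 3.62% and 19.2%. The motif GGGCGG (the GC box of Sp factors), searched on both strands and overlapping no other motif searched, was in 7 of the 11 windows of these genes and in 32.7% of all windows, TTTGAA (an element of cell cycle genes) in 1 of 11 and 16.0%, and TATAAA (the TATA box) in 0 of 11 and 12.4%.

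The lists of the 2 ages differed greatly in length, which touches every comparison below. The neonatal lists held 9097, 31189 and 7353 peaks and the adult lists 72278, 72661 and 77002. Covered sequence was 2.98, 13.7 and 2.33 Mb in the neonatal and 41.9, 44.3 and 60.9 Mb in the adult libraries. Neonatal replicate 2 stood apart from the other neonatal libraries. The read depth of each library is unknown from the files used here, so neither intervals nor detection limits could be set, and list length, depth and age cannot be told apart. The comparison was therefore repeated with the 7353 strongest peaks of each library by the authors' −log10 p-value, the number in the shortest list. These are called the strongest peaks. They include every peak of neonatal replicate 3, so the p-value at the cut differs between libraries. In such bulk material, more cells with the mark and more of the mark per cell cannot be told apart.

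Promoter peaks were found in more adult than neonatal libraries for 5 of the 7 inhibitors, in all 6 libraries for Cdkn1b, Cdkn2c, Ccnd1 and Ccnd3, and in more neonatal than adult libraries for Ccnd2. All genes leaned the same way: 34.4%, 73.9% and 30.3% had a promoter peak in the neonatal and 83.6%, 81.5% and 83.5% in the adult libraries. A promoter peak is one the authors' annotation put within 3000 bp of a start. The neonatal lists gave 9, 33 and 10 peaks at the 10 genes, of which 8, 20 and 9 were at promoters, and the adult lists 44, 36 and 42, of which 28, 23 and 27 were at promoters. Genes of the 10 with a promoter peak numbered 5, 7 and 5 in the neonatal libraries (5.67 ± 1.15, SD, n = 3) and 9, 7 and 10 in the adult ones (8.67 ± 1.53, SD, n = 3), so that adult replicate 2 equalled neonatal replicate 2. Among the strongest peaks the counts were 3, 4 and 5 (4.0 ± 1.0, SD, n = 3) against 3, 4 and 3 (3.33 ± 0.577, SD, n = 3), and the difference, adult minus neonatal, turned from 3.0 to -0.667 genes. Of all genes, 29.8%, 34.1% and 30.3% had a promoter peak among the strongest in the neonatal and 32.8%, 29.2% and 30.1% in the adult libraries. The 4 genes with a promoter peak in all 6 libraries stand against a background of 21.5% of the 18548 genes with a promoter peak anywhere. All 3 adult libraries had one for 7 of the 10 genes, against 73.1% of those genes, and all 3 neonatal libraries for 5, against 22.8%. A promoter peak among the strongest of any library was found for 6 genes, against 53.4%, and in all 3 adult libraries for 3 (Cdkn1b, Cdkn2c and Cdkn2d), against 21.9%. Cdkn1a was the 1 gene of the 10 with promoter peaks in all adult and no neonatal library, against 12.1% of those genes; none showed the reverse, against 0.264%.

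**Figure D1:**
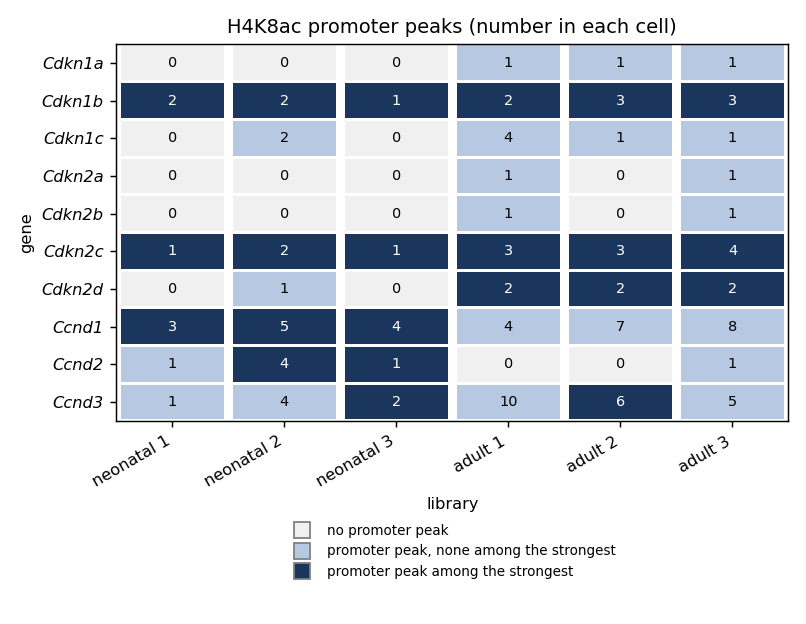
Number of H4K8ac promoter peaks (the figure in each cell) for each of the 10 genes (rows) in each of the 6 libraries (columns); the shading separates no peak, a peak, and a peak among the 7353 strongest of the library. Cdkn1b and Cdkn2c have a strongest peak in every library, Cdkn2d in the 3 adult libraries only, and Ccnd1 in the 3 neonatal libraries only.

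Promoter coverage, the number of bases of a gene's promoter peaks, was compared on the log2(bases + 100) scale, with the exact two-sided permutation test over libraries. With 3 libraries against 3 that exact test cannot go below p = 0.1. After Benjamini-Hochberg adjustment over 18548 genes the smallest adjusted p of the permutation test was 0.165, so 0 genes passed 0.05, and 0 had an unadjusted p under 0.05. The counts below are therefore of genes whose libraries do not overlap between ages. Every adult library lay above every neonatal one for 5 of the 10 genes, Cdkn1a, Cdkn1b, Cdkn2c, Cdkn2d and Ccnd3, close to the background of 60.1% of all genes tested, and the reverse held for 0, against 0.399%. The differences of those 5 genes lay between the 57.5 percentile (Cdkn2c) and the 79.5 percentile (Cdkn1a) of all genes. The median difference, adult minus neonatal, was 2.0 over the 10 genes and 1.78 over all genes. With a pseudocount of 10 bases it was 3.05 and 3.12, the opposite order. Without neonatal replicate 2 the difference was larger for Cdkn1b (2.37), Cdkn2c (2.71) and Cdkn2d (3.19). By family the median was 2.12 for Cip/Kip, 1.84 for INK4 and 0.56 for the D cyclins. Over the locus, which is the gene with 10 kb on either side whatever gene a peak was assigned to, the same 5 genes were higher in every adult library, against a background of 69.9% of the 18991 genes tested, and Ccnd2 was higher in every neonatal one, against 0.158%. The other 4 overlapped, and Ccnd2 and Ccnd3 overlapped too when the flanks were left out. The median locus difference was 2.11 over the 10 genes and 2.18 over all genes.

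**Figure D2:**
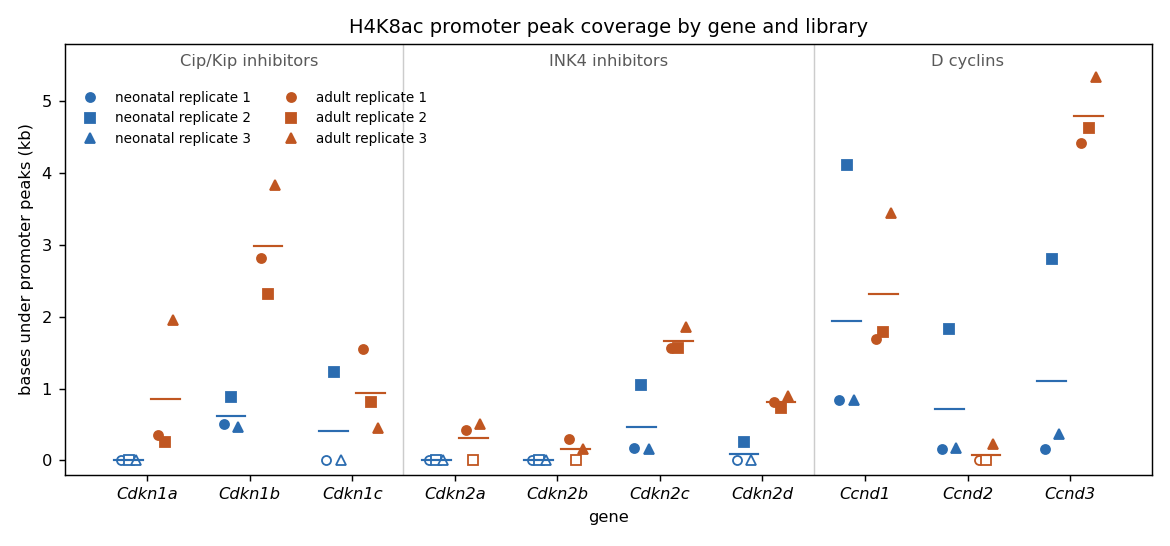
Sequence under promoter peaks (vertical axis, in kb, linear) for each gene in the 3 neonatal and 3 adult libraries; each point is 1 library, hollow points are libraries with 0 bases, and each line is the mean of its age. The adult points lie above all neonatal points for Cdkn1a, Cdkn1b, Cdkn2c, Cdkn2d and Ccnd3, the ages overlap for Ccnd1, and Ccnd2 has 166, 1827 and 173 bases in the neonatal and 0, 0 and 228 in the adult libraries.

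Of the Cip/Kip inhibitors, Cdkn1b had the mark at both ages and more of it in the adult. Its promoter difference lay at the 60.8 percentile of all genes and its locus difference at the 43.3 percentile. Cdkn1b (ENSMUSG00000003031.14, chromosome 6, 134920401 to 134925525, plus strand) had 511, 888 and 464 bases of promoter peaks in the neonatal and 2818, 2322 and 3832 in the adult libraries. All adult values were above all neonatal values, with a log2 difference of 2.12 ± 0.32 (SE, n = 3 and 3, exact permutation p = 0.1). The fold of its promoter peak strongest by −log10 p-value, the authors' own value, was 7.15, 9.88 and 3.87 in the neonatal and 17.6, 14.1 and 16.7 in the adult libraries. A peak at this promoter was among the strongest peaks of every library, and there too the adult values were higher, by 1.54 on the log2 scale. In the authors' deposited table the site at this promoter was higher in the adult by a log2 fold change of 1.61 (authors' adjusted p = 0.00178), and a site 3.6 kb upstream by 1.95 (authors' adjusted p = 0.0012). These lay at the 35.9 percentile of the promoter sites listed and the 18.5 percentile of the distal intergenic ones. The upstream region, 134916489 to 134917853, had 0, 165 and 0 bases of peaks in the neonatal and 928, 1066 and 1307 in the adult libraries.

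Cdkn1a (ENSMUSG00000023067.14, chromosome 17, 29090979 to 29100722, plus strand) had 0 bases in every neonatal library and 356, 251 and 1958 in the adult ones. The groups did not overlap (exact permutation p = 0.1, n = 3 and 3), but the strongest adult folds were 4.7, 2.66 and 5.67, none of these peaks was among the strongest of its library, and the ages overlapped when only peaks with q under 0.005 were kept. They overlapped the downstream window printed above and extended downstream of that start, with 231 of 356, 95 of 251 and 188 of 1958 bases inside the window. The promoter peaks next to them were assigned to 1700023B13Rik, a neighbouring gene, in all 3 adult libraries and in neonatal replicate 2. Counted by position within 3000 bp of a Cdkn1a start whatever the assigned gene, neonatal replicate 2 therefore had 592 bases. The adult libraries then had 1866, 1554 and 2136, so the ages did not overlap by position either. The 1958-base peak of adult replicate 3 ran from 2.602 to 4.559 kb from the upstream start. It overlapped the stretch assigned to the neighbour in adult replicates 1 (3.108 to 4.617 kb) and 2 (3.187 to 4.489 kb). No site of the authors' deposited table was assigned to Cdkn1a, and the site assigned to 1700023B13Rik, 3.73 kb from the upstream Cdkn1a start, was higher in the adult by 1.79 in the authors' deposited table (authors' adjusted p = 0.000443).

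Cdkn1c (ENSMUSG00000037664.13, chromosome 7, 143458339 to 143461059, minus strand) showed no separation of the ages. It had 0, 1226 and 0 bases in the neonatal and 1551, 808 and 447 in the adult libraries, so neonatal replicate 2 lay within the adult range (log2 difference 1.98 ± 1.33, SE, n = 3 and 3, exact permutation p = 0.3). Without neonatal replicate 2 the ages did not overlap, and the difference was 3.23. A distal region about 4 kb upstream behaved alike, with peaks in all 3 adult libraries and in neonatal replicate 2.

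**Figure D3:**
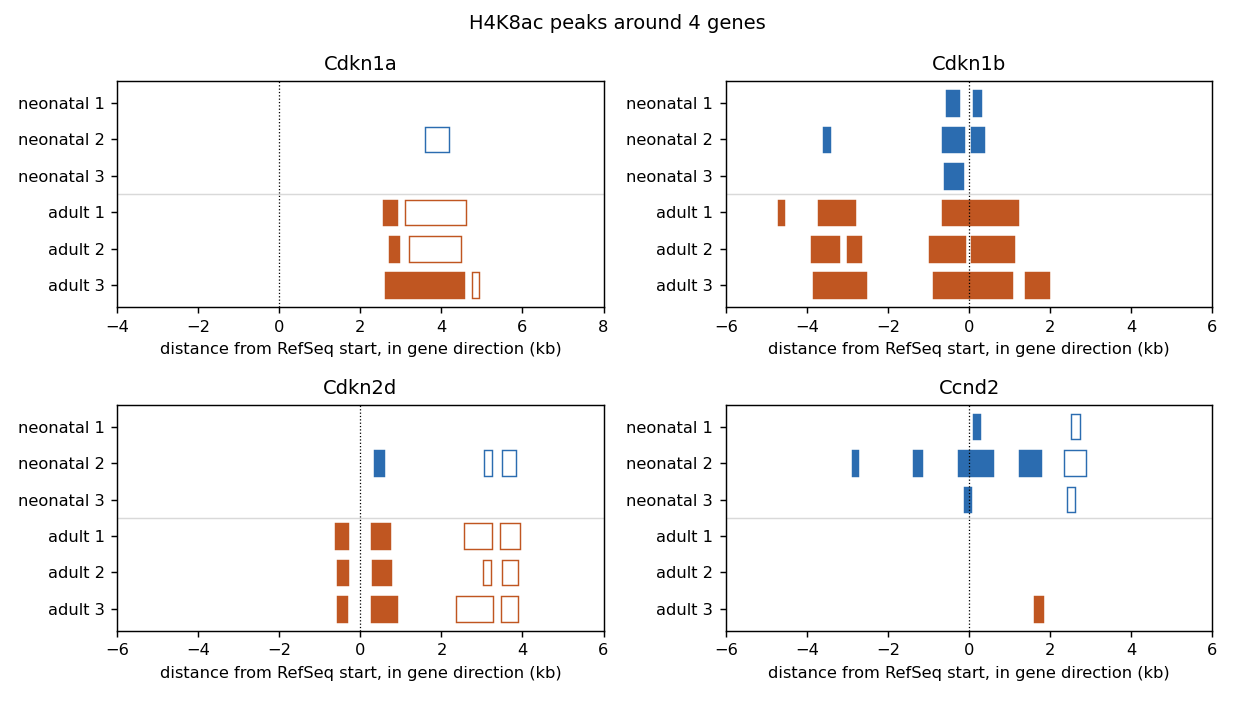
Peaks of the 6 libraries around Cdkn1a, Cdkn1b, Cdkn2d and Ccnd2, by distance in kb from the RefSeq start (horizontal axis, in the direction of transcription); each row is 1 library, each bar 1 peak, filled where the authors assigned it to the gene and hollow where they assigned it to a neighbour. Bars lie at the Cdkn1b start in every library, flank the Cdkn2d start in the adult libraries, and lie at the Ccnd2 start in the neonatal libraries only.

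Among the INK4 inhibitors, Cdkn2c had a promoter peak at both ages, Cdkn2d mainly in the adult, and Cdkn2a and Cdkn2b little at either age. Cdkn2c (p18, ENSMUSG00000028551.14, chromosome 4, 109660876 to 109666756, minus strand) had 176, 1049 and 161 bases in the neonatal and 1568, 1569 and 1861 in the adult libraries. Its adult values were above all neonatal ones, neonatal replicate 2 being the nearest (log2 difference 2.01 ± 0.70, SE, n = 3 and 3, exact permutation p = 0.1). With the strongest peaks alone the ages overlapped, with a difference of 0.84 (exact permutation p = 0.2, n = 3 and 3). The fold of the promoter peak strongest by −log10 p-value did not separate the ages. It was 5.5, 16.7 and 5.31 in the neonatal and 16.6, 12.7 and 15.9 in the adult libraries. Most of the difference in bases lay downstream of the start: the region from 109665488 to 109666645 had 0, 577 and 0 bases in the neonatal and 924, 937 and 983 in the adult libraries, whereas the peak at the upstream start was present in all 6. Both sites of Cdkn2c in the authors' deposited table were higher in the adult, by 2.08 (authors' adjusted p = 0.00914) and 1.37 (authors' adjusted p = 0.00427), and both lay downstream of that start.

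Cdkn2d (p19INK4d, ENSMUSG00000096472.2, chromosome 9, 21288459 to 21291421, minus strand) had 0, 250 and 0 bases in the neonatal and 812, 731 and 900 in the adult libraries. The ages did not overlap (log2 difference 2.59 ± 0.61, SE, n = 3 and 3, exact permutation p = 0.1). Each adult library had a peak on either side of the RefSeq start and none over the 250 bases before it. The downstream peak had a fold of 13.3, 11.1 and 9.4 in the adult libraries and 3.18 in neonatal replicate 2. Cdkn2d was the 1 gene of the 10 with a promoter peak among the strongest in all 3 adult and no neonatal library, against 2.2% of all genes tested. Its sites in the authors' deposited table were higher in the adult by 2.5 (authors' adjusted p = 1.71e-06) downstream and 2.12 (authors' adjusted p = 0.00427) upstream of the start.

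Cdkn2a (ENSMUSG00000044303.6, chromosome 4, 89274473 to 89294619, minus strand) encodes p16INK4a and p19ARF from separate first exons. It had 0 bases in every neonatal library and 419, 0 and 508 in the adult ones, so adult replicate 2 equalled the neonatal libraries (exact permutation p = 0.4, n = 3 and 3). Both peaks lay at the upstream start, that of p19ARF, and no library had a peak at the p16INK4a start. The authors' deposited table held 1 site of Cdkn2a, at the same start, higher in the adult by 1.68 (authors' adjusted p = 0.0116). The neighbouring Cdkn2b (p15, ENSMUSG00000073802.5, chromosome 4, 89306289 to 89311032, minus strand) had 0 bases in every neonatal library and 299, 0 and 166 in the adult ones (exact permutation p = 0.4, n = 3 and 3), from peaks on opposite sides of the start, and no site in the authors' deposited table. Neither gene had a peak among the strongest of any library, and neither was apart between ages unless adult replicate 2 was left out.

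The D cyclins differed among themselves. Ccnd2 carried the mark at its start in the neonatal libraries, Ccnd1 at both ages, and Ccnd3 at both ages with more in the adult.

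Ccnd2 (ENSMUSG00000000184.12, chromosome 6, 127125162 to 127152188, minus strand) had promoter peaks over 166, 1827 and 173 bases in the neonatal and 0, 0 and 228 in the adult libraries. The adult peak lay 1.599 to 1.826 kb inside the gene, with a fold of 2.87. The region at the start, 127151599 to 127152472, had 166, 874 and 173 bases in the neonatal and none in any adult library. It was the 1 region, of 54 merged regions at the 10 genes, with peaks in all neonatal and no adult library, against 0.0943% of 100779 such regions over all genes; the reverse held for 5 of the 54 and for 20189 of the 100779. Over the promoter as a whole the ages overlapped by adult replicate 3 (log2 difference -1.80 ± 1.10, SE, n = 3 and 3, exact permutation p = 0.3), and the difference was -0.86 without neonatal replicate 2. Over the locus, coverage was 388, 2358 and 357 bases in the neonatal and 0, 0 and 228 in the adult libraries.

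Every neonatal locus value of Ccnd2 was above every adult one, as for 0.158% of all genes tested. The locus difference was -2.46 ± 0.98 on the log2 scale (SE, n = 3 and 3, exact permutation p = 0.1, adjusted p = 0.143), and -1.67 without neonatal replicate 2. Over the gene without flanks it was -2.13 and the ages overlapped (exact permutation p = 0.2, n = 3 and 3). The locus difference lay at the 0.0474 percentile of all genes, and the promoter difference at the 0.377 percentile. In the authors' deposited table the site at the Ccnd2 start, 127151832 to 127152231, was lower in the adult, with a log2 fold change of -2.60 (authors' adjusted p = 0.000118), at the 0.031 percentile of the promoter sites listed. Among the strongest peaks, equal in number in every library, Ccnd2 kept a promoter peak in 2 neonatal and 0 adult libraries. Its locus difference was -2.39, without overlap. That cut kept the whole list of neonatal replicate 3, with its Ccnd2 promoter peak (authors' −log10 p-value 6.25). It dropped those of neonatal replicate 1 (6.1) and adult replicate 3 (4.09), so the libraries were not held to an equal p-value. A peak inside the gene that the authors assigned to the neighbouring gene 9330179D12Rik was present in all 3 neonatal and no adult library, and its site was lower in the adult by -1.20 in the authors' deposited table (authors' adjusted p = 0.0269). The locus separation of the ages depended on that peak, of 222, 531 and 184 bases. Peaks assigned to Ccnd2 alone covered 166 and 173 bases in neonatal replicates 1 and 3, below the 228 of adult replicate 3. Tigar, about 42 kb away, had promoter peaks in all adult libraries and in neonatal replicate 2.

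Ccnd1 (ENSMUSG00000070348.5, chromosome 7, 144929931 to 144939831, minus strand) had promoter peaks over 842, 4121 and 842 bases in the neonatal and 1694, 1794 and 3450 in the adult libraries. Neonatal replicate 2 was the highest of the 6 and the other neonatal libraries the lowest, so the ages overlapped (log2 difference 0.56 ± 0.79, SE, n = 3 and 3, exact permutation p = 0.6), and the difference was 1.28 without neonatal replicate 2. The fold of the promoter peak strongest by −log10 p-value was 5.13, 8.36 and 4.33 in the neonatal and 6.43, 4.34 and 5.3 in the adult libraries. With the strongest peaks the direction turned: Ccnd1 kept a promoter peak in all 3 neonatal libraries and in no adult one, against 2.45% of all genes. The difference was then -3.34. That cut kept the whole list of neonatal replicate 3, whose strongest Ccnd1 promoter peak had an authors' −log10 p-value of 10.2. It dropped those of adult replicates 1 and 3, at 12.4 and 12.1, so the turn does not show less of the mark in the adult. The mark also covered distal regions upstream. Those about 54 kb (144993168 to 144994845) and 87 kb (145025711 to 145027829) away had peaks in all 3 adult and no neonatal library, and that about 91 kb away in all adult libraries and neonatal replicate 2.

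The 54-kb region had 374, 1448 and 1678 bases of peaks in the adult libraries and the 87-kb region 562, 632 and 2119. In the authors' deposited table their sites were higher in the adult by 2.25 (authors' adjusted p = 0.000441) and 2.45 (authors' adjusted p = 0.0014), and a site inside the Ccnd1 promoter region by 2.64 (authors' adjusted p = 0.00163). The distal sites lay at the 29.0 and 36.1 percentiles of the distal intergenic sites listed, and the promoter site at the 74.6 percentile of the promoter ones. That promoter site lay 2.53 kb inside the gene, where 2 adult and no neonatal library had a peak. The region upstream of the start, 144941956 to 144943640, had 333, 1685 and 236 bases in the neonatal and 0, 169 and 398 in the adult libraries, so the ages overlapped there and no site of it was in the authors' deposited table. Which gene the distal regions act on was not measured.

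Ccnd3 (ENSMUSG00000034165.16, chromosome 17, 47505051 to 47599689, plus strand) had promoter peaks over 166, 2801 and 370 bases in the neonatal and 4424, 4632 and 5341 in the adult libraries. All adult values were above all neonatal ones (log2 difference 2.78 ± 1.04, SE, n = 3 and 3, exact permutation p = 0.1), and the difference was 3.79 without neonatal replicate 2. The peaks lay at the first start and at an internal start, whose 250-base window ends at 47593466. At the first start the region from 47504030 to 47506549 had 166, 419 and 0 bases in the neonatal and 1887, 1831 and 2371 in the adult libraries. At the internal start the region from 47592676 to 47595011 had 0, 1362 and 370 against 1763, 1901 and 2212. Adult values were the higher at both starts. With the strongest peaks, 1 library of each age kept a Ccnd3 promoter peak, and the ages overlapped.

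Ccnd3 held 8 of the 19 sites of the authors' deposited table at these genes. Its promoter sites in the authors' deposited table were higher in the adult, by a log2 fold change of 1.49 (DiffBind adjusted p = 0.000696) at the internal start and up to 2.19 (DiffBind adjusted p = 0.0115) near the first start. Of its intron sites in the authors' deposited table, 3 were higher in the adult, by 1.14 to 2.39, and 1, at 47521918 to 47522317, was lower, by -1.22 (authors' adjusted p = 0.0336). The 3 lay at the 1.32, 3.19 and 34.1 percentiles of the intron sites listed. The lower site lay at the 0.363 percentile. The region around that site, 16.91 kb from the first start, had peaks in all 6 libraries, over 256, 1595 and 340 bases in the neonatal and 139, 544 and 548 in the adult ones. It was the 1 region of 17 outside promoters present in all 6, against 0.493% of such regions over all genes, and its coverage overlapped between the ages.

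**Figure D4:**
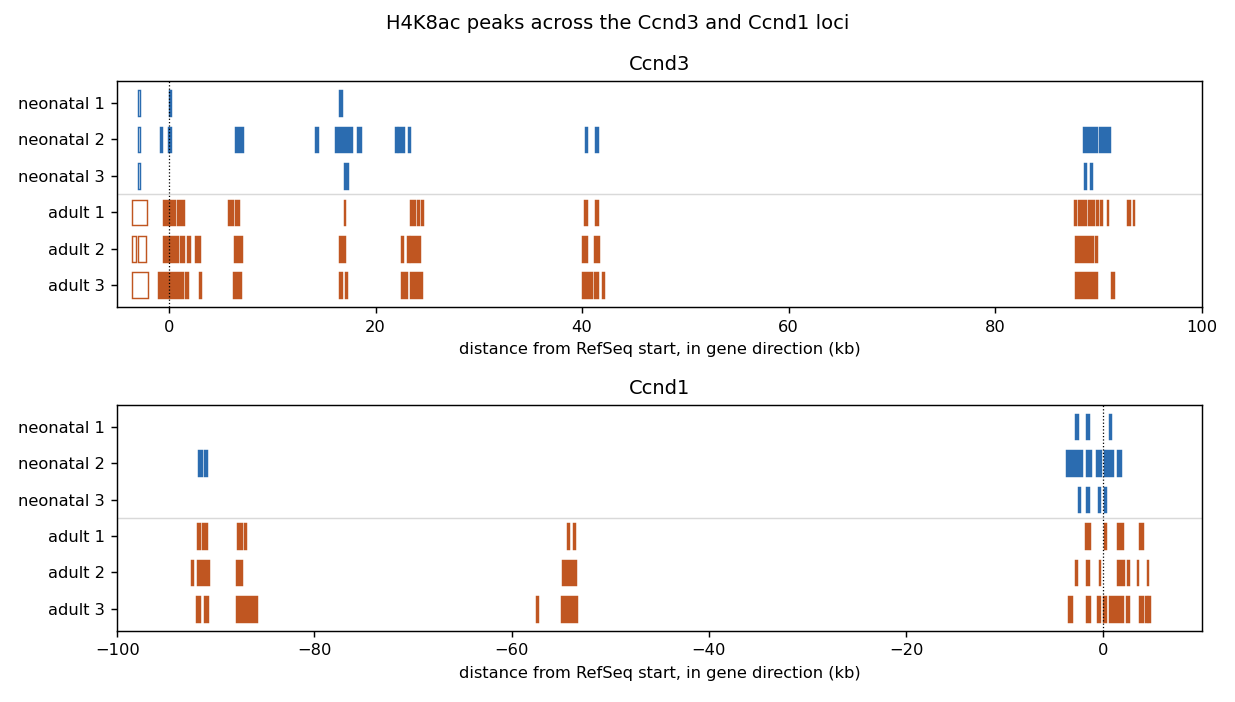
Peaks of the 6 libraries along Ccnd3 and upstream of Ccnd1, by distance in kb from the RefSeq start (horizontal axis, in the direction of transcription); each row is 1 library, each bar 1 peak drawn to scale, filled where assigned to the gene and hollow where assigned to a neighbour. At Ccnd3 the intron region 16.91 kb from the start has a bar in all 6 libraries, and at Ccnd1 the regions 54 and 87 kb upstream have bars in the 3 adult libraries only.

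Over the 10 genes the authors' deposited table held 19 sites, 17 higher and 2 lower in the adult, against 99.4% higher and 0.579% lower among all 43888 sites listed there. The direction was read from overlaps, since the authors' deposited table names none: of its 43634 sites with a positive value 43630 overlapped an adult peak and 27.9% a neonatal one, and of those with a negative value 37.0% overlapped an adult and 98.4% a neonatal peak. Of the 10 genes 6 had a site higher in the adult, against 65.1% of genes with a peak, and 2 had a site lower in the adult (Ccnd2 and Ccnd3), against 0.977%. With an authors' adjusted p under 0.005, 5 genes had a site higher in the adult in the authors' deposited table, against 49.0%. The median of the 12 promoter sites was 1.83 in the authors' deposited table, beside 1.86 over all 19341 promoter sites listed. The median of the 7 other sites was 1.95, beside 2.85 for the other sites in the authors' deposited table. Sites that missed the authors' threshold are not in that table, so the medians are over listed sites only.

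**Figure D5:**
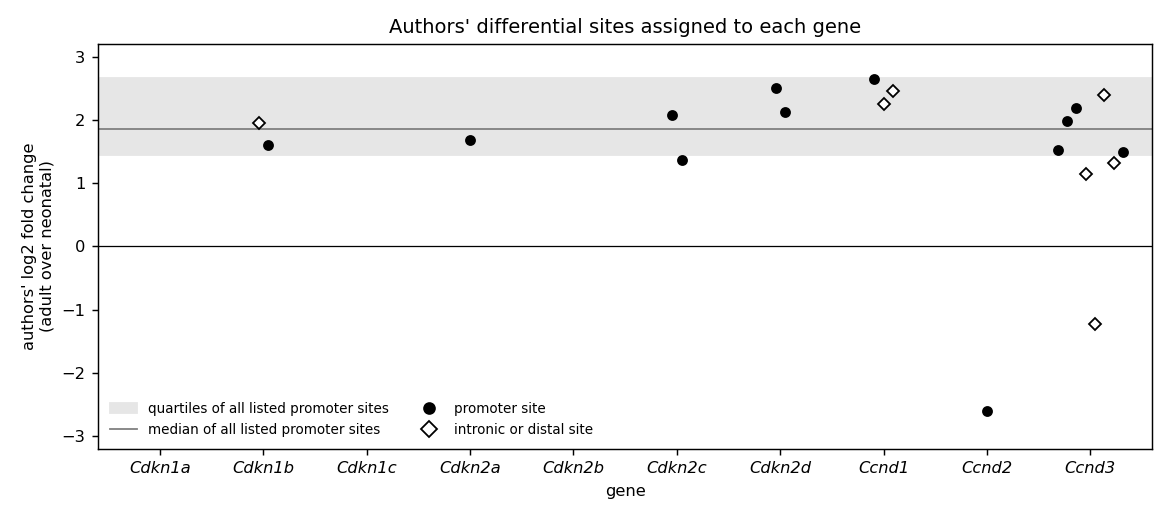
Log2 fold change, adult over neonatal, of each of the 19 sites of the authors' deposited table at the 10 genes (vertical axis, log2; horizontal axis, gene); filled points are promoter sites and open points intronic or distal sites, and the band and line are the quartiles (1.45 and 2.67) and median (1.86) of all listed promoter sites. Of the 19 points 17 lie above 0, and the Ccnd2 start (-2.60) and 1 Ccnd3 intron site (-1.22) lie below it.

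The genes that act with these, the Cdk4/6, retinoblastoma, E2F and cyclin E network, had promoter peaks in more adult than neonatal libraries, as all genes did. Of 19 such genes 8, 16 and 10 had a promoter peak in the neonatal and 18, 18 and 18 in the adult libraries, beside 34.4%, 73.9% and 30.3% against 83.6%, 81.5% and 83.5% of all genes. Among the strongest peaks the counts were 6, 8 and 10 against 7, 7 and 6, beside 29.8%, 34.1% and 30.3% against 32.8%, 29.2% and 30.1% of all genes. Every adult library was above every neonatal one for 13 of the 18 tested, against 60.1% of all genes, the reverse held for none, against 0.399%, and the median log2 difference was 1.72, beside 1.78 over all genes. E2f1, an activator of S-phase genes, and Skp2, which directs p27 to degradation, had promoter peaks in all adult and no neonatal library. They were 2 of the 18 network genes tested, near the background of 12.1% of all genes. In the authors' deposited table the network's promoter site lowest in log2 fold change was that of Tfdp1 (1.00, authors' adjusted p = 0.0443) and the highest that of Tfdp2 (5.63, authors' adjusted p = 4.23e-06); both encode partners of E2F. Rbl2, which encodes the retinoblastoma relative p130 of resting cells, was chosen after its value was seen: 5.13 in the authors' deposited table (authors' adjusted p = 2.77e-09), with promoter peaks over 0, 528 and 0 bases in the neonatal and 2198, 1848 and 4336 in the adult libraries. Of 8 regulators of these genes, 6 were higher in every adult library, against the same 60.1% of all genes, with a median log2 difference of 1.87, beside 1.78 over all genes.

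By pattern over the 6 libraries, the gene nearest to Ccnd2 was Gjd3 (distance 0.67 on the log2 scale), with 244, 1219 and 153 bases in the neonatal and 0, 0 and 211 in the adult libraries. The gene nearest to Ccnd1 was Tmem255b (distance 0.48) and to Ccnd3 Cux2 (distance 0.57). These are descriptions over 6 libraries that share their list lengths.

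Markers of mature oligodendrocytes, and a few of microglia and endothelial cells, had more promoter peaks in the adult libraries. OPC markers had promoter peaks at both ages, with more summed coverage in the adult but fewer markers among the strongest peaks there. The numbers of fibroblast, neuron and astrocyte markers with a promoter peak overlapped between the ages. Summed coverage overlapped for the fibroblast and neuron lists. For the astrocyte list it was 493, 2987 and 0 bases in the neonatal and 3113, 3090 and 6351 in the adult libraries, without overlap. Only 1 of the 5 astrocyte markers tested was itself higher in every adult library, against 60.1% of all genes. The shares of all genes with a promoter peak, given above, also differed between the ages. Of 5 mature oligodendrocyte markers 1, 1 and 1 had a promoter peak in the neonatal and 5, 5 and 5 in the adult libraries, with summed coverage of 435 to 2137 bases against 34200 to 54822; Mog, Mag, Mobp and Opalin were at 0 in every neonatal library. Of 6 OPC markers 6, 6 and 6 against 6, 6 and 5 had one, and among the strongest peaks 6, 6 and 6 against 4, 4 and 4. Every adult library was above every neonatal one for 4 of the 6, against 60.1% of all genes. Pdgfra, whose locus drives the reporter, had 1638, 5617 and 513 bases in the neonatal and 1586, 1205 and 2119 in the adult libraries. Its promoter site was lower in the adult, by -1.23 in the authors' deposited table (authors' adjusted p = 0.027). Of 6 microglia markers 0 in the neonatal and 1 in each adult library had one (Cx3cr1, 579 to 1067 bases), of 6 endothelial markers 0 and 2 (Pecam1 and Kdr), of 6 fibroblast markers 0, 3 and 0 against 1, 2 and 1, of 6 neuron markers 0, 4 and 1 against 4, 2 and 2 (Slc17a7 in all adult and no neonatal library), and of 6 astrocyte markers 2, 4 and 0 against 3, 2 and 4. The part of these cells in the differences at the inhibitors and cyclins was not tested.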

How the data were processed

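H4K8ac ChIP-seq peaks of 6 libraries were analysed; the 6 input libraries were not analysed here. Per the submitters' processing notes, Trim Galore, Bowtie2 2.4.5, SAMtools, deepTools, MACS2, DiffBind and ChIPseeker were used, on GRCm38. Each library has its own list, in which the authors give per peak, per the file headers, a score (10 times −log10 of the q-value), a fold over background, −log10 of p-value and q-value, and a distance to the start; the score was not used. The largest q-value of each list was 0.0427 to 0.0489. The authors also deposited a table of sites with a log2 fold change, p-value and adjusted p-value; its normalisation is not given in the sources used here. Starts in the files count from 0 and are printed from 1.

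From these, bases of promoter peaks and of peaks in the gene with 10 kb on either side (RefSeq GRCm38.p6, matched by symbol for 81.0% of genes) were summed per gene and library. They were compared as log2(bases + 100) by an exact two-sided permutation test over 20 arrangements of the libraries, adjusted by Benjamini-Hochberg over all genes, and the script was tested on simulated data (Python 3.11.15, numpy 2.4.6, scipy 1.17.1). A site or region overlapped a peak from 1 shared base. Where nothing says that libraries came from separate animals, p-values measure only the spread between them. The 10 genes and all gene lists were chosen with earlier results of these data known. All 10 are named. Other lists are given as counts, plus genes with promoter peaks in all libraries of 1 age and none of the other. Also named are the network genes lowest and highest in the authors' table and the gene nearest in pattern to each D cyclin. Rbl2 and Pdgfra are named outside this rule. Alternatives were a stricter q-value, equal numbers of strongest peaks, other promoter and locus windows, a pseudocount of 10, each library left out and the replicate number as a block. A gene of the mature oligodendrocyte marker list is not reported here and was left out of that list's counts.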

Additional observations from a re-analysis of the deposited data

How the results depend on the processing

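The direction of the count of genes with a promoter peak depended on list length: the difference, adult minus neonatal, went from 3.0 to -0.667 genes with the 7353 strongest peaks per library. With those peaks the shares of all genes were 29.8%, 34.1% and 30.3% in the neonatal and 32.8%, 29.2% and 30.1% in the adult libraries. That setting also took the genes whose adult libraries were all higher from 5 to 2 at promoters (Cdkn1b and Cdkn2d) and from 5 to 3 over the locus (Cdkn1b, Cdkn2c and Cdkn2d), and turned the Ccnd1 difference to -3.34 at the promoter and -3.34 over the locus; it keeps fewer adult peaks by construction. Leaving out 1 library at a time gave 2.33 to 3.83 more genes, and 5 to 7 genes apart at promoters and over the locus. The count of 7 came without neonatal replicate 2 (adding Cdkn1c and Ccnd1) and without adult replicate 2 (adding Cdkn2a and Cdkn2b). The neonatal-above call of Ccnd2 over the locus held in each setting with flanks and was lost for the gene without flanks, as was the adult-above call of Ccnd3. With q under 0.005 the ages overlapped at the Cdkn1a promoter. At its promoter Ccnd2 became neonatal-above with q under 0.005, by position and without adult replicate 3. With an adjusted p under 0.005, 5 genes in place of 6 had a site higher in the adult in the authors' deposited table and 1 in place of 2 a lower one. By position the counts were 7 and 1.

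No gene passed an adjusted p of 0.05 under any of these settings. Correlations of deviations between libraries of the same replicate number were -0.0531, 0.00287 and 0.072 for numbers 1, 2 and 3. Those of unlike numbers ran from -0.0929 to 0.095. The check gave no sign of pairing by number, but with 3 libraries of each age it cannot exclude it. With the number as a block the exact test cannot go below 0.25, 0 genes passed, and Ccnd2 over the locus gave -2.46 (exact permutation p = 0.25, 3 pairs). Read depth, unknown here, limits how far missing neonatal peaks can be read: a peak not listed is not shown to be absent.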
